A study of Mus musculus with 2 samples.

Results

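The 9 genes described here encode secreted inhibitors of vessel growth, vascular endothelial growth factor (VEGF) ligands and VEGF receptors, and they were taken by symbol from the 23628 genes listed for *Sox9*GFPHi chondrospheres. All 9 were listed in both libraries. They are *Cnmd* and *Serpinf1* (inhibitors), *Vegfa*, *Vegfb*, *Vegfc* and *Pgf* (ligands), *Flt1* (a receptor) and *Nrp1* and *Nrp2* (co-receptors). RNA was sequenced in 2 libraries of 1 condition, called replicate 1 and replicate 2, both from mouse pups at postnatal day 7 that were homozygous for the *Sox9*IRES-EGFP reporter allele. Pups were harvested separately by the methods, but the labels do not tie a library to a pup. Cells of the femoral heads with the highest EGFP signal and without the surface markers of endothelial, red and white blood cells (CD31, Ter119, CD45) were sorted, and single cells were grown into colonies, the chondrospheres, in methylcellulose under low oxygen. By the methods, growth in methylcellulose took several weeks, so postnatal day 7 is the age of the donors and not of the cultures. The medium contained serum, FGF2, BMP4, IGF1, LIF and TGF-β1. The model thus held cultured chondrocytes without vessels. With no second condition, no test between groups was made, and the spread given is that between the 2 libraries. Where a pair of values is given for a gene, replicate 1 comes first.

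Cartilage is an avascular tissue. Chondrocytes of resting and articular cartilage secrete proteins that keep vessels out, among them chondromodulin and pigment epithelium-derived factor (PEDF), while hypertrophic chondrocytes at the growth plate release VEGF-A, which draws vessels in before bone forms. VEGF ligands act through the receptor kinases VEGFR1 (*Flt1*), VEGFR2 (*Kdr*) and VEGFR3 (*Flt4*), and the neuropilins hold both VEGF and class 3 semaphorins at the cell surface.

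Levels are given in CPM, the deposited unit (counts scaled to a common library total), after removal of the offset of 0.0001 that every deposited value carried. Genes are compared with each other as CPM per kilobase of annotated exon, because longer transcripts give more reads. The steps between the lowest values correspond to a depth of about 4.33e+07 and 4.22e+07 reads, so that 3 reads equal 0.0693 and 0.0712 CPM. At a mean of at least 1 CPM, 7 of the 9 genes were measured, against 53.5% of all genes listed. All 8 cartilage markers reached at least 1 CPM in both libraries, with *Col2a1* at 148953 and 100682 CPM and *Acan* at 14170 and 12002 CPM. The 1 CPM bar alone does not set cell types apart. In both libraries 7 of 11 hypertrophic and bone-forming markers and 3 of 7 mural cell markers also reached it. In whole libraries of this kind, fewer cells that transcribe a gene and less RNA per cell cannot be told apart.

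The 2 inhibitors were by far the highest of the 9 genes. *Cnmd*, which encodes chondromodulin, a transmembrane precursor whose released part blocks endothelial growth, lies on chromosome 14 of GRCm38 from 79637690 to 79662170 on the minus strand. Its values were 1241 and 878 CPM (1060 ± 256, SD, n = 2). Per kilobase of exon these values were 673 and 477 CPM. By CPM it stood above 99.8% and 99.7% of all genes listed. *Serpinf1* encodes PEDF, a secreted member of the serpin family without known protease inhibition, and lies on chromosome 11 from 75409769 to 75422701. It reached 913 and 715 CPM (814 ± 140, SD, n = 2), and per kilobase 387 and 303 CPM. Both inhibitors had their higher value in replicate 1. Per kilobase, *Cnmd* exceeded *Serpinf1* 1.74-fold and 1.57-fold, and their log2 ratio, 0.73 ± 0.10 (SD, n = 2), was larger than its spread.

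Among the 4 ligand genes, only *Vegfa* and *Vegfb* were above 1 CPM. *Vegfa*, the main growth factor of blood vessel endothelium, lies on chromosome 17 from 46016993 to 46032369 on the minus strand. It had 103 and 93.1 CPM (98.3 ± 7.27, SD, n = 2), or 24.1 and 21.7 CPM per kilobase. The annotation gives 13 transcripts of *Vegfa*, and values per gene do not separate its heparin-binding from its diffusible forms. *Vegfb*, whose product binds VEGFR1 but not VEGFR2, lies on chromosome 19 from 6982473 to 6987651 and had 9.50 and 8.61 CPM (9.05 ± 0.625, SD, n = 2), or 5.92 and 5.37 CPM per kilobase. The log2 ratio of *Vegfa* to *Vegfb* per kilobase was 2.03 in replicate 1 and 2.02 in replicate 2, so that *Vegfa* made up 79.9% and 79.8% of the summed level of the 4 ligands.

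*Pgf* and *Vegfc* were near the limit of detection. *Pgf*, which encodes placental growth factor, a ligand of VEGFR1, lies on chromosome 12 from 85166635 to 85177790. Its 0.370 CPM equals 16 reads with an exact Poisson 95% interval of 0.211 to 0.600 CPM, and its 0.261 CPM equals 11 reads with an interval of 0.130 to 0.467 CPM. The exact interval of the log2 ratio of replicate 2 to replicate 1, -1.76 to 0.70, included 0, so a difference was not detectable at this depth. These intervals cover counting error only. *Vegfc*, the ligand of lymphatic vessel growth, lies on chromosome 8 from 54077606 to 54187096. Its 0.0231 CPM equals 1 read and its 0.0712 CPM equals 3 reads, so no fold is given for it. Of the summed ligand level per kilobase, *Pgf* made up 0.422% and 0.330%, and *Vegfc* 0.0313% and 0.107%.

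**Figure D1:**
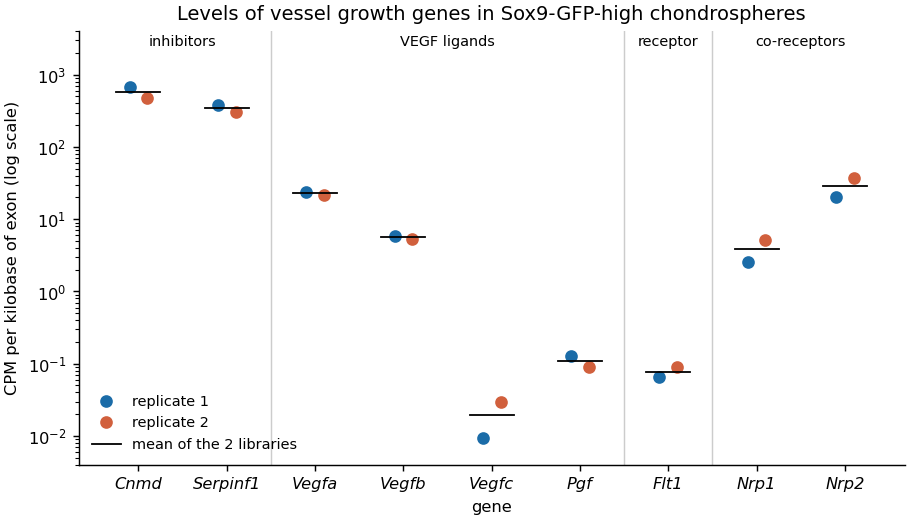
Level of each of the 9 genes in CPM per kilobase of exon on a log axis, with 1 point for each library and a bar at the mean of the 2. *Cnmd* and *Serpinf1*, at 575 and 345 CPM per kilobase as means, stand above *Nrp2* and *Vegfa* at 28.8 and 22.9, while *Pgf*, *Flt1* and *Vegfc* lie at 0.109 or lower.

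The inhibitors exceeded *Vegfa* in both libraries by more than the spread between them. *Cnmd* was 27.9-fold and 21.9-fold above *Vegfa* per kilobase, and the log2 ratio averaged 4.63 ± 0.25 (SD, n = 2). For *Serpinf1* the ratio was 16.0-fold and 14.0-fold, or 3.90 ± 0.14 as log2 (SD, n = 2). The summed inhibitors, at 1060 and 780 CPM per kilobase, were set against the summed ligands, at 30.2 and 27.2. This gave 35.1-fold and 28.7-fold, with the log2 ratio at 4.99 ± 0.21 (SD, n = 2). Without division by length, *Cnmd* was still 12.0-fold and 9.43-fold above *Vegfa* in CPM. These folds are smaller because the exons of *Cnmd* cover 1843 bases against 4285 for *Vegfa*. As within-library ratios these values do not depend on how a library was scaled. They compare RNA only, and protein was not measured.

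The bases just before the start sites of *Cnmd* and *Vegfa*, the highest inhibitor and the highest ligand, are shown because the contrast between these genes carries the comparison. They are the 250 bases upstream of the RefSeq start on GRCm38.p6, read on the minus strand from chr14:79662184-79662433 for *Cnmd* and chr17:46032378-46032627 for *Vegfa*. Capitals mark matches to 4 motifs searched on both strands, which are the GC box GGGCGG bound by SP factors, the TATA box TATAAA, the core ACGTG of the hypoxia response element and the SOX motif ACAAAG. Overlapping matches were each counted, and an entry in lower case throughout holds none.
Cnmd: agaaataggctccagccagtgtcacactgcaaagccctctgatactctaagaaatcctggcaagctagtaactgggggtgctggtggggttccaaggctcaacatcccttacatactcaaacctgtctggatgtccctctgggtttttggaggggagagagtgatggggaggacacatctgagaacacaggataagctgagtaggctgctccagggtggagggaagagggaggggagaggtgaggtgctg
Vegfa: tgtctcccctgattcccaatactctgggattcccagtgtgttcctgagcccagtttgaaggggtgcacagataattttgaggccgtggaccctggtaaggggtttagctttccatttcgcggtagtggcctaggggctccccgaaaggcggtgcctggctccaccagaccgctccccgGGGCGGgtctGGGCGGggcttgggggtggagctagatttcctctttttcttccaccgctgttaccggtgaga
The *Vegfa* window held 2 GC boxes and a GC content of 59.2%, and the *Cnmd* window held none of the 4 motifs at a GC content of 54.0%, against a median of 52.0% over 27025 genes. Over all 9 genes, 7 windows held a GC box, against 32.9% of all windows, and those of *Cnmd* and *Serpinf1* did not. The 7 windows had a GC content of 59.2% (*Vegfa*) to 76.4% (*Vegfb*), against 54.0% for *Cnmd* and 51.6% for *Serpinf1*. The part of base composition in these matches was not tested. The windows of *Serpinf1*, *Pgf* and *Nrp2* overlap annotated exons, and the bases after the start used for *Vegfc* were not found in its annotated transcripts. ACGTG was found only in the window of *Serpinf1* among the 9 genes (16.6% of all windows), TATAAA only in that of *Flt1* (13% of all windows) and ACAAAG in none of the 9 (16.5% of all windows). Sites further upstream than 250 bases were not searched, so a window without a motif does not mean a gene without that site. A match is a description of the letters, and binding was not measured.

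Of the receptor genes, *Flt1* was barely detected. *Flt1* encodes VEGFR1, whose soluble form traps VEGF, and lies on chromosome 5 from 147561604 to 147726011. Its values were 0.878 CPM (38 reads, exact Poisson 95% interval 0.621 to 1.21 CPM) and 1.21 CPM (51 reads, 0.901 to 1.59 CPM), and only the second library was above 1 CPM. The membrane-bound and soluble forms were not separated. The exact interval of its log2 ratio between the libraries, -0.17 to 1.11, included 0.

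The neuropilins, by contrast, were well measured. *Nrp2*, on chromosome 1 from 62703285 to 62818695, encodes the co-receptor for VEGF-C and for semaphorin 3F. It had 240 and 442 CPM (341 ± 143, SD, n = 2), or 20.2 and 37.3 CPM per kilobase. *Nrp1*, on chromosome 8 from 128358604 to 128503363, encodes the co-receptor for VEGF-A and semaphorin 3A, and had 24.8 and 51.1 CPM (38.0 ± 18.6, SD, n = 2), or 2.54 and 5.22 CPM per kilobase. Both genes had their higher value in replicate 2. The log2 ratio of *Nrp1* to *Nrp2* per kilobase was -3.00 and -2.84 (-2.92 ± 0.11, SD, n = 2), so that *Nrp2* made up 88.6% and 87.5% of the summed level of *Flt1*, *Nrp1* and *Nrp2*. Genes annotated within these loci, *Mir1903* in *Nrp1* and *Gm29083* and *Gm37121* in *Nrp2*, could share some of their reads.

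Whether ligands or receptors were higher depended on the library and on the length used. The summed ligands were 1.32-fold the summed receptors per kilobase in replicate 1 but 0.639-fold in replicate 2, which is -0.12 ± 0.74 as log2 (SD, n = 2). Replicate 1 alone gave 0.40 and replicate 2 alone -0.65. Per kilobase of the longest coding transcript the ligands were lower in both libraries, at 0.880-fold and 0.423-fold (-0.71 ± 0.75 as log2, SD, n = 2), and in CPM at 0.427-fold and 0.207-fold. *Nrp2* against *Vegfa* was 0.839-fold and 1.72-fold per kilobase of exon, but above *Vegfa* in both libraries per kilobase of the longest coding transcript (1.19-fold and 2.44-fold) and in CPM (2.32-fold and 4.74-fold). By mean level per kilobase of exon the order was *Cnmd*, *Serpinf1*, *Nrp2*, *Vegfa*, *Vegfb*, *Nrp1*, *Pgf*, *Flt1* and *Vegfc*. In that order 3 neighbouring pairs did not differ beyond their spread, which were *Nrp2* and *Vegfa*, *Vegfb* and *Nrp1*, and *Pgf* and *Flt1*. The mean log2 ratio of *Vegfb* to *Nrp1* was 0.63 per kilobase of exon, -0.49 per kilobase of the longest coding transcript and -1.98 in CPM. For *Pgf* to *Flt1* it was 0.49 per kilobase of exon and -1.73 in CPM. The place of *Vegfc* rests on 1 and 3 reads. The inhibitors were 46.4-fold and 18.3-fold above the summed receptors per kilobase of exon, and 8.11-fold and 3.22-fold in CPM.

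**Figure D2:**
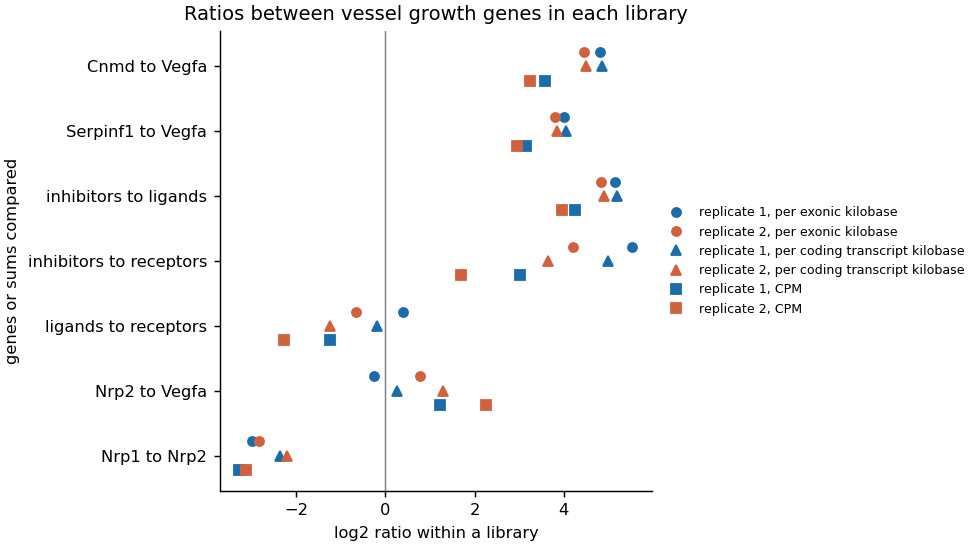
Log2 ratios between genes or sums within each library, in CPM per kilobase of exon (circles), per kilobase of the longest coding transcript (triangles) and in CPM (squares), where a value of 0 means equal levels. All points of the inhibitors against ligands or receptors lie above 0, whereas the ligands against the receptors fall on either side of 0 per kilobase of exon, at 0.40 and -0.65.

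Between the libraries, *Cnmd*, *Serpinf1* and *Vegfa* were lower and *Nrp1* and *Nrp2* higher in replicate 2 by more than counting error, while the counting intervals of *Vegfb* (-0.35 to 0.07 as log2), *Pgf* and *Flt1* included 0 and *Vegfc* had too few reads. The median gene of the 12631 that averaged 1 CPM or more had a log2 ratio of replicate 2 to replicate 1 of 0.30. Relative to that median, *Cnmd* stood at -0.80 and *Serpinf1* at -0.66. On the same scale *Vegfa* was at -0.46 and *Vegfb* at -0.44. *Flt1* was at 0.12, *Nrp2* at 0.58 and *Nrp1* at 0.73. By CPM before centring *Nrp1* and *Nrp2* lay furthest apart, and after it *Cnmd* did. Past 2-fold before centring was 1 of these 7 genes, *Nrp1*, at 2.06-fold higher in replicate 2, where 11.4% of all genes were higher past 2-fold and 3.71% were lower. After centring, 0 of the 7 were past 2-fold, against 13.5% of all genes in either direction. These are differences between 2 libraries of 1 condition and have no replicate check.

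Some markers of cartilage maturation also differed between the libraries. Of the 11 hypertrophic and bone-forming markers, 9 averaged 1 CPM or more, and of those 6 (5 after centring) were past 2-fold higher in replicate 2 and 0 past 2-fold lower. Of all genes, 11.4% were past 2-fold higher and 3.71% lower, and 13.5% either way after centring. The 6 included *Dmp1* (0.116 and 40.4 CPM, the first resting on 5 reads), *Spp1* (4620 and 20524 CPM) and *Mmp13* (8.96 and 44.8 CPM). *Alpl* (0.462 and 1.92 CPM), *Sp7* (1.96 and 6.81 CPM) and *Runx2* (16.2 and 39.6 CPM) were the others. All 11 summed to 6539 and 22907 CPM. Without *Spp1* the sum was 1919 and 2383 CPM, most of it from *Col10a1*. *Ihh*, listed at 0 in the first library, had 14 reads in the second. The collagen X gene *Col10a1*, at 1752 and 2109 CPM, the parathyroid hormone receptor gene *Pth1r*, at 137 and 137 CPM, and *Ibsp*, at 2.24 and 3.27 CPM, were the 3 that did not pass 2-fold. The 8 cartilage markers summed to 187245 and 129663 CPM, with *Matn3* (741 and 53.1 CPM) alone past 2-fold lower before centring, and the log2 ratio of *Col2a1* to *Cnmd* per kilobase was 4.58 and 4.51. *Sox9*, the master regulator of cartilage genes, had 252 and 279 CPM, and *Cnmd* exceeded it per kilobase 11.0-fold and 7.07-fold. The part of maturation markers in the difference of the 9 genes was not tested.

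**Figure D3:**
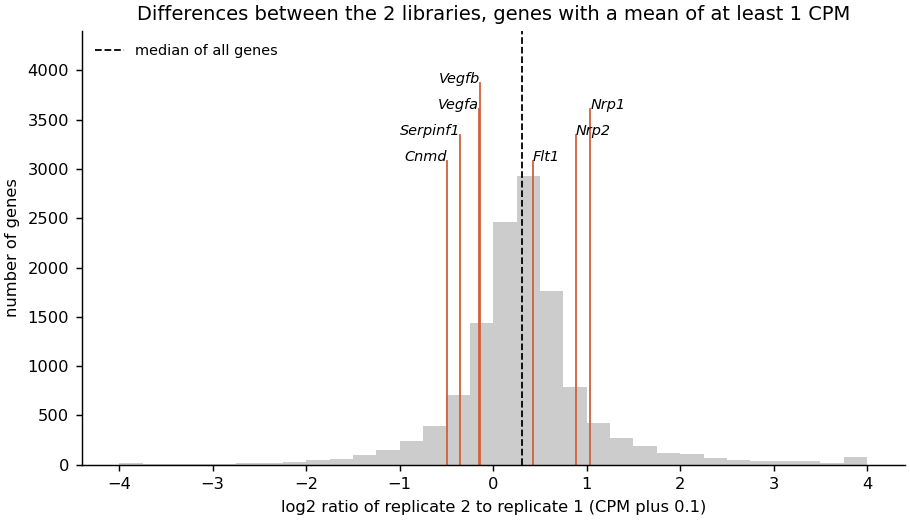
Number of genes by log2 ratio of replicate 2 to replicate 1, over the 12631 genes averaging 1 CPM or more, with ratios past 4 in either direction drawn in the end bars and the median of 0.30 as a dashed line. The 4 inhibitor and ligand genes lie left of the median, and *Flt1*, *Nrp2* and *Nrp1* lie right of it.

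The receptors through which VEGF drives endothelial growth were at 0 or low. *Kdr*, the gene of VEGFR2, was listed at 0 in both libraries. *Flt4*, the gene of VEGFR3, had 0.185 and 0.474 CPM, and the remaining ligand gene *Vegfd* had 1.71 and 2.56 CPM. Of the 14 endothelial markers, 8 were listed at 0 in both libraries, among them *Cdh5*, *Tek*, *Tie1* and *Cldn5*. Of all 23628 genes listed, 4534 were at 0 in replicate 1 and 4721 in replicate 2. *Pecam1*, which encodes the CD31 antigen used to remove endothelial cells in the sort, had 0.231 and 0.166 CPM. Only *Erg*, at 54.3 and 14.5 CPM, reached 1 CPM in both, a transcription factor gene also known from articular cartilage. Without *Erg*, the list summed to 0.703 and 1.87 CPM. The part of endothelial cells in the *Flt1* reads was not tested. Blood cell markers were similarly low, with *Cd68* at 2.56 and 2.40 CPM the highest of the leukocyte list and a sum of 0.0930 and 0.120 CPM for the erythroid list. In the mural cell list, 3 of 7 genes listed reached 1 CPM in both, namely *Cspg4* (538 and 619 CPM), *Pdgfrb* (140 and 152 CPM) and *Acta2* (53.4 and 93.0 CPM), genes that other mesenchymal cells also transcribe. Of all genes listed, 53.5% averaged 1 CPM or more.

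Class 3 semaphorins, the other ligands of the neuropilins, and their plexin partners were mostly above 1 CPM. Of 12 genes, 9 reached 1 CPM in both libraries and 10 averaged it or more, against 53.5% of all genes listed that averaged it or more. *Sema3c*, a neuropilin ligand, had 87.9 and 63.4 CPM, and the highest plexin, *Plxna1*, had 46.5 and 106 CPM. *Plxna3* was level at 40.9 and 40.6 CPM. Of the 10 that averaged 1 CPM or more, 3 were past 2-fold higher and 2 past 2-fold lower in replicate 2 (2 and 3 after centring). The shares of all genes were 11.4% higher and 3.71% lower, and 13.5% in either direction after centring. In the angiopoietin and TIE list, *Tek* and *Tie1* were listed at 0 and *Angpt2* had 3 and 0 reads. The 2 of its 6 genes that reached 1 CPM in both were *Angptl4* (16.4 and 3.39 CPM), a target of hypoxia, and *Angpt4* (12.0 and 2.85 CPM), both lower past 2-fold in replicate 2, and *Angpt1* had 0.254 and 0.427 CPM.

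Other secreted inhibitors reached levels like that of *Cnmd*. Of 8 such genes, 4 had at least 1 CPM in both libraries, where 53.5% of all genes listed averaged that level or more. Among the 5 of these 8 that averaged 1 CPM or more, 1 was past 2-fold higher in replicate 2 (11.4% of all genes) and 1 past 2-fold lower (3.71%). *Thbs1*, which encodes thrombospondin 1, had 662 and 890 CPM per kilobase, against 673 and 477 for *Cnmd*. *Timp3*, whose product inhibits metalloproteinases and blocks VEGF from VEGFR2, had 1058 and 419 CPM per kilobase, 2.53-fold higher in replicate 1, so that its order with *Cnmd* differed between the libraries. *Thbs2* had 18.9 and 29.9 CPM per kilobase. *Tnmd*, the close relative of *Cnmd* found in tendon, was listed at 0 in both libraries, as was the platelet gene *Pf4*. *Col18a1*, the source of endostatin, had 0.693 and 29.9 CPM, the first of these resting on 30 reads.

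Among 8 other genes known to promote vessel growth, 5 reached 1 CPM in both libraries, where 53.5% of all genes listed averaged that level or more. Of the 5, 2 were past 2-fold higher in replicate 2 (1 after centring), against 11.4% of all genes. Past 2-fold lower was 1, *Adm* (40.5 and 6.86 CPM), against 3.71% of all genes. The matricellular gene *Ccn2* stood at 1304 and 1122 CPM per kilobase, above *Cnmd* in both libraries, and *Ccn1* at 97.6 and 219. None of these genes entered the sums of inhibitors and ligands above. *Fgf2*, also a supplement of the medium as protein, had 22.1 and 91.3 CPM, and *Ptn* had 2 and 0 reads. Enzymes known to free VEGF from matrix were represented by *Mmp14* (84.6 and 234 CPM) and *Mmp13* (8.96 and 44.8 CPM), both past 2-fold higher in replicate 2, whereas *Mmp9*, the growth plate enzyme, had 3 and 0 reads and *Hpse* 0 and 10 reads. Of 2 proteins reported to bind PEDF, *Pnpla2* had 10.8 and 13.6 CPM and *Rpsa* 557 and 826 CPM, the latter uncertain because *Rpsa* has processed copies that can share reads.

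*Vegfa* is a known target of hypoxia-inducible factors, whose genes are shown beside it. *Hif1a* had 325 and 283 CPM, *Slc2a1* 272 and 133 CPM and *Ldha* 371 and 506 CPM. In that list 7 of 9 genes reached 1 CPM in both libraries, where 53.5% of all genes listed averaged that level or more. Of those 7, 0 were past 2-fold higher (11.4% of all genes) and 1, *Slc2a1*, past 2-fold lower (3.71%) in replicate 2. After centring, 2 were past 2-fold lower, against 13.5% of all genes in either direction. These genes went both ways between the libraries, and their part in the level of *Vegfa* was not tested. The genes nearest to *Vegfa* in level over the 2 libraries were *Tubb4b*, *Anxa4* and *Rabac1*, at Euclidean distances of 0.02, 0.02 and 0.05 on the log2 scale, and those nearest to *Cnmd* were *Gm10925*, *mt-Co2* and *Plod2*, at 0.16, 0.29 and 0.35. With 2 libraries such a distance describes levels only.

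**Figure D4:**
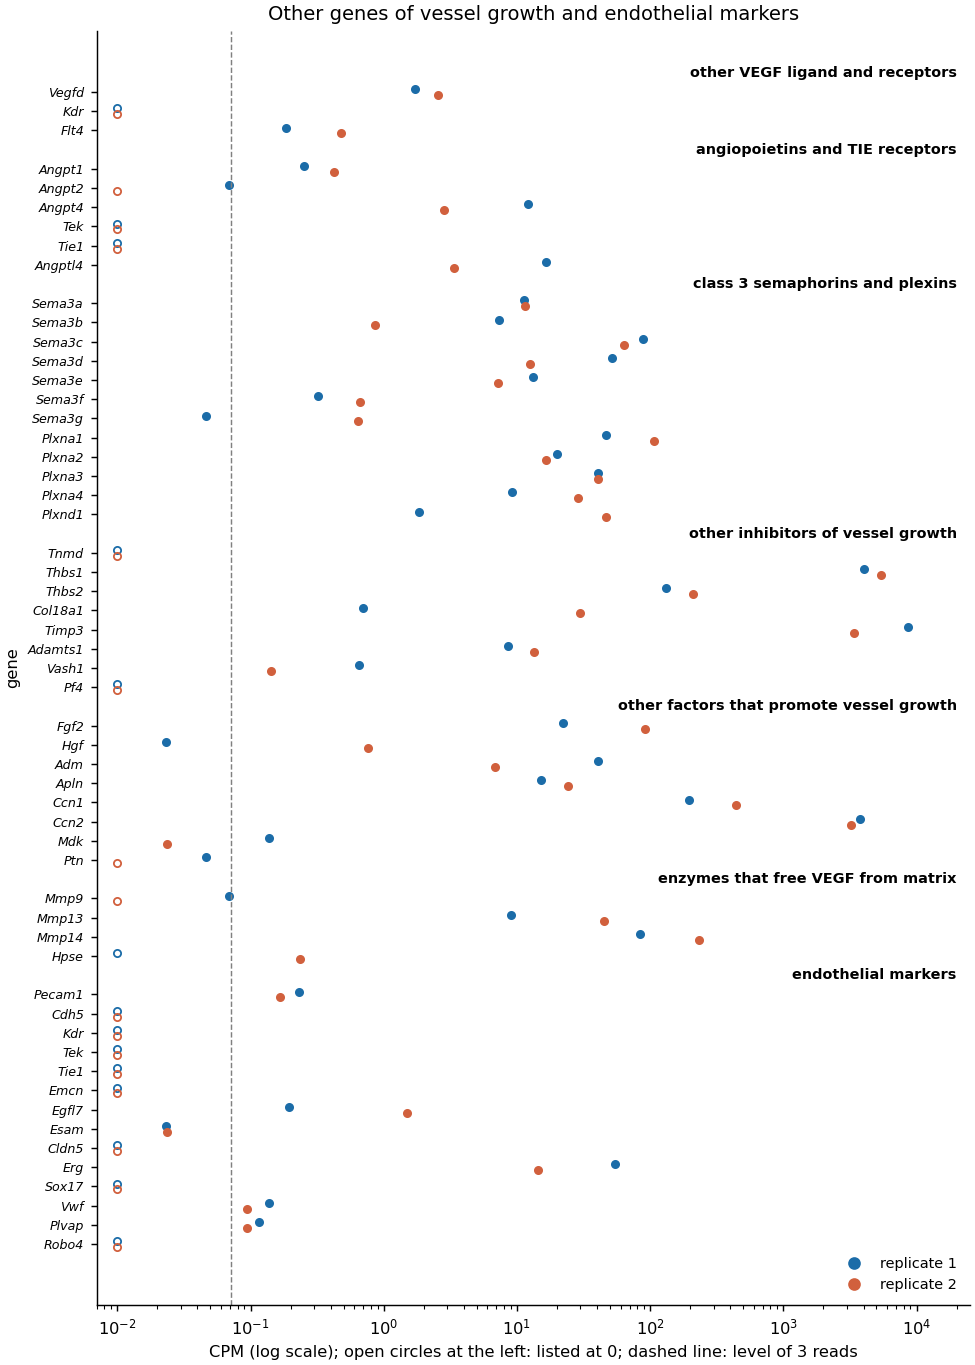
CPM of the other genes of vessel growth and of endothelial markers in each library on a log axis, with open circles at the left for genes listed at 0 and a dashed line at the level of 3 reads. Among the endothelial markers *Erg* stands alone at 54.3 and 14.5 CPM, while *Kdr*, *Tek* and *Tie1* are at 0 and *Thbs1*, *Timp3* and *Ccn2* are the highest genes shown.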

How the data were processed

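Poly(A) RNA of 2 libraries was sequenced as single-end reads from a stranded preparation. Per the submitters' processing notes and the methods, the authors aligned the reads with STAR 2.7.3a to GRCm38, quantified them against GENCODE M25 by Partek E/M in Partek Flow 10.0.21.0801 and deposited counts-per-million (CPM) values with 0.0001 added to each. E/M can divide reads among genes that share sequence. The smallest step between values was taken as 1 read. Below 50 reads, 66.5% (replicate 1) and 65.3% (replicate 2) of values lay within 0.05 of a whole read. That was too few to recover reads for all genes, and count models over all genes were not used. Reads given for single genes are the CPM divided by that step, rounded, and so approximate. Intervals of a level are exact Poisson, and those of a ratio between the libraries are exact binomial for the split of reads.

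From the CPM, means, SDs and within-library log2 ratios were computed with pandas 2.3.3 and numpy 2.4.6 in Python 3.11.15, intervals with scipy 1.17.1 and plots with matplotlib 3.10.9. Ratios between libraries used a pseudocount of 0.1 CPM, which understates the change of low genes. Exonic lengths and coordinates came from GENCODE M21 on GRCm38, the same build, where 97.2% of the symbols matched 1 gene. The 10 highest genes held 43.4% (replicate 1) and 34.7% (replicate 2) of all CPM. Where RefSeq lists several starts, the promoter nearest to the longest coding transcript was used. Alternatives were other lengths, scalings, pseudocounts and filters, and each library alone. The fold computation was run on simulated data with set changes and counting error only. Those data lack other variation between libraries, so the run checks the arithmetic and not the folds reported here. Members and lists were chosen with earlier results of these data known. Of each list of genes of vessel growth or hypoxia, the 3 highest genes and those at or under 3 reads in both libraries were named. Marker lists are given by sums, counts and examples. *Col18a1*, *Adm*, *Ihh*, *Matn3* and the maturation markers past 2-fold other than *Mmp13* were added after their values were seen. *Kdr*, *Tek*, *Tie1* and *Mmp13* are each in 2 lists. *Kcnj8* and *Cd3e* of the marker lists were not listed. Log2 ratios were computed for 23 pairs of genes or sums.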

Additional observations from a re-analysis of the deposited data

How the results depend on the processing

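For 5 within-library ratios and 2 counts, 40 values were recomputed with 1 choice changed. Of these, 29 stayed within 1 SD of the value given above with the same sign (counts, within 1.5 times). The 29 do not measure stability, because some choices could not move a ratio past 1 SD. Those were keeping the offset, which is far below the levels compared, and leaving out 1 library. The choice of length could move a ratio. Leaving out the division by length moved all 5 ratios by more than 1 SD. Using the longest coding transcript moved only *Nrp1* to *Nrp2* that far. Without division by length, the log2 ratio was 3.41 for *Cnmd* to *Vegfa*, 3.04 for *Serpinf1* to *Vegfa*, 4.11 for the summed inhibitors to the summed ligands, -1.75 for the ligands to the receptors and -3.19 for *Nrp1* to *Nrp2*. Per kilobase of the longest coding transcript, *Nrp1* to *Nrp2* was -2.29 and the ligands to the receptors -0.71. The ratio of ligands to receptors turned its direction with 1 library left out, from 0.40 without replicate 2 to -0.65 without replicate 1. The count of genes past 2-fold between the libraries, 1 as computed, was 0 after centring on the median, after dropping the 10 highest genes from the total, with a trimmed mean of log ratios and with the upper quartile. For a ratio, leaving out 1 of 2 libraries moves the mean by less than the SD by arithmetic. Of 54 recomputed ratios of replicate 2 to replicate 1 for single genes, 23 moved and 0 turned their sign. A pseudocount cannot change a sign. Apart from *Vegfc*, each scaling lowered all ratios, so only a small positive ratio could turn. The closest was *Flt1*, at 0.42 as computed and 0.12 after centring. Most of the signs therefore say nothing of stability. At this depth *Vegfc* and *Pgf* rest on 1 to 16 reads.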
